A study of Mus musculus with 2 samples.

Results

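The 10 genes described here encode ligands and receptors of immune checkpoints that myeloid cells carry: Cd274 (PD-L1), Pdcd1lg2 (PD-L2), Havcr2 (TIM-3), Lgals9 (galectin-9), Vsir (VISTA), Cd276 (B7-H3), Pvr (CD155), Nectin2 (CD112), Sirpa (SIRP-alpha) and Cd47. They were taken by name, but with earlier results of these data known, so the choice was not blind to them. All 10 were among the 31053 features counted. The data are single-cell RNA-seq counts of leukocytes sorted by the surface protein CD45 from tumours of mice that carried AB1-HA, a mouse mesothelioma line. Mice of the first group had received a control antibody and those of the second an antibody against VEGF, the vascular growth factor, and each group is represented by 1 library. Both groups carried the same tumour. Strain, age, dose, day and the number of mice pooled are unknown from the sources used here. With 1 library a group no test between groups can be made, so each difference below describes these libraries, and every interval is an exact 95% interval for counting error only.

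Checkpoint proteins damp immune responses. PD-L1 and PD-L2 bind PD-1 on activated T cells and lower signalling through the T-cell receptor, and interferon-gamma is the best-known inducer of PD-L1. TIM-3, carried by macrophages and dendritic cells as well as by T cells, binds galectin-9. CD155 and CD112 are shared by the inhibitory receptor TIGIT and the activating receptor CD226, while CD47 on any cell can bind SIRP-alpha on a macrophage and restrain phagocytosis.

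Cd274 and Pdcd1lg2 lie next to each other in the same orientation. In the GENCODE vM21 annotation of GRCm38 (mm10), Cd274 spans chr19:29367455-29388095 on the plus strand and Pdcd1lg2 spans chr19:29410919-29471161. The gap between them is 22824 bp and holds 0 coding genes. The bases before their RefSeq starts are printed here because these neighbours were the members with the highest library ratios in monocyte-like cells. A stretch before Lgals9, a member that was not higher, is printed for contrast and ends 22 bases before the RefSeq start. Capitals mark matches to any of 4 motifs, which were chosen after the files had been seen and were searched on both strands: the gamma-activated site TTCNNNGAA, the interferon-stimulated response element (a pair of GAAA runs set apart by any 2 bases), and the hypoxia response cores ACGTG and GCGTG. All 3 sequences read 5′ to 3′ on the gene's strand and come from RefSeq on GRCm38.p6: chr19:29367188-29367437 (plus) for Cd274, chr19:29410669-29410918 (plus) for Pdcd1lg2 and chr11:78984947-78985046 (minus) for Lgals9.
Cd274: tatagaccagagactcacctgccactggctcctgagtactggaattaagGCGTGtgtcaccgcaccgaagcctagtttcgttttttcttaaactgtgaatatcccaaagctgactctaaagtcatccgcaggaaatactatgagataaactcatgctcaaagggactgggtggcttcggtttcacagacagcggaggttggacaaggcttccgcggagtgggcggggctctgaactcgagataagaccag
Pdcd1lg2: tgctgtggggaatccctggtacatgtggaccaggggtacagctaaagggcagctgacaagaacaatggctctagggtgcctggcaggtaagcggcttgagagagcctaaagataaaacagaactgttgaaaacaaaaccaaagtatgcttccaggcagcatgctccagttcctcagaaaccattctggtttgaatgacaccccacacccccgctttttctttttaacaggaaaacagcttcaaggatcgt
Lgals9: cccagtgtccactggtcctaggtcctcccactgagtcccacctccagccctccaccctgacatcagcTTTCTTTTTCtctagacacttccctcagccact
In these windows Cd274 held a GCGTG whose first base is at -201 from the start, Pdcd1lg2 held none of the motifs, and Lgals9 held the interferon-stimulated element on the other strand at -55. Over 32851 promoters with 250 bases before the start, 28.2% held GCGTG, 16.6% ACGTG, 7.02% TTCNNNGAA and 2.98% the interferon-stimulated element. Of the 10 members, 8 had an entry in the promoter table. Besides the members printed, Havcr2 held ACGTG at 1 place and Nectin2 held GCGTG at 2 places. Both entries of Cd47 held ACGTG at 1 place and GCGTG at 2, while Vsir and Cd276 held none of the motifs. These are matches of letters and say nothing of binding.

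The other genes are at chr11:46454935-46481255 (Havcr2, plus), chr11:78962974-78984946 (Lgals9, minus), chr10:60346851-60372684 (Vsir, plus), chr9:58524298-58555437 (Cd276, minus), chr7:19903578-19921160 (Pvr, minus), chr7:19716644-19750483 (Nectin2, minus), chr2:129592835-129632228 (Sirpa, plus) and chr16:49800533-49915010 (Cd47, plus). All are coding genes. Cd274, Pdcd1lg2, Vsir, Cd276, Pvr and Nectin2 overlap an annotated gene on the other strand, and the sources used here do not say how strand was treated in counting. Sirpa resembles the Sirpb1 genes, so its counts depend on how shared reads were treated, which was not tested.

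The control library held 11687 barcodes and the anti-VEGF library 8825, with medians of 17293 and 21781 UMIs (unique molecular identifiers, each standing for 1 captured transcript). Cell filters kept 10805 and 8159 cells. Cells were placed in classes by how many marker genes of a lineage they held: 4554 control and 3466 anti-VEGF cells were macrophage-like (C1qa, Adgre1 and others), 222 and 371 monocyte-like (Ly6c2, Ccr2 and others), 1664 and 928 osteoclast-like (Acp5, Ctsk, Mmp9), 51 and 233 neutrophil-like, and 67 and 53 T cell-like. Another 502 and 719 were collagen-expressing cells, in which Ptprc, the gene of CD45, stood at 7.93 and 8.43 CPM (counts of a gene scaled to a common class total) against 199 and 184 CPM in macrophage-like cells. They do not match the sorted phenotype and serve below as cells in which myeloid genes should be absent. Cells with markers of more than 1 lineage (363 and 329) were kept apart as mixed, and 3269 and 2011 cells met no gate. The cut for the osteoclast-like class fell where cells were still frequent, with 79 control cells just below it and 78 just above.

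PD-L1 was higher in anti-VEGF than in control cells of both the macrophage-like and the monocyte-like class. Cd274, summed over the cells of a class, stood at 28.4 CPM (27.5 to 29.5) in control and 42.1 CPM (40.7 to 43.4) in anti-VEGF macrophage-like cells. In monocyte-like cells it was 51.8 CPM (46.6 to 57.5) and 123.5 CPM (116 to 131). The intervals of the libraries did not overlap in either class. Macrophage markers, summed over 9 genes, stood at 18020 and 13050 CPM in macrophage-like cells. In monocyte-like cells they stood at 15270 and 11220 CPM and monocyte markers at 1557 and 2154 CPM. The part of cell makeup in the Cd274 differences was not tested. Fewer cells of a type and less RNA per cell cannot be told apart in such sums. In both libraries the monocyte-like level was the higher.

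The highest Cd274 levels were in small classes. Mature dendritic cell-like cells (Ccr7, Fscn1), which carry antigen to T cells, stood at 305 CPM (240 to 382) in 29 control cells and 486 CPM (380 to 612) in 14 anti-VEGF cells, and these intervals overlap. Neutrophil-like cells stood at 182 CPM (122 to 262) in the control library and 448 CPM (401 to 499) in the anti-VEGF library. Their median depth was 2466 and 2222 UMIs a cell, so the control value rests on 29 UMIs in 13 of 51 cells. A 10-gene interferon-response sum stood at 1873 and 4833 CPM in the same cells. Flt3-positive dendritic cell-like cells stood at 63.3 CPM (44.8 to 86.8, 26 cells) and 178 CPM (139 to 225, 18 cells), T cell-like cells at 91.2 and 87.9 CPM, and the control NK cell-like cells at 61.7 CPM (41.3 to 88.6). No ratio was formed for a class with fewer than 100 cells in a library.

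At the other end, Cd274 was low in osteoclast-like cells, at 7.51 CPM (6.72 to 8.36) and 8.17 CPM (7.19 to 9.25), although these cells also belong to the myeloid line. Collagen-expressing cells held 4.54 and 4.39 CPM. After each cell was thinned to 5000 UMIs, a Cd274 UMI was found in 10.99% of control and 14.6% of anti-VEGF macrophage-like cells (31.99% and 40.7% unthinned), and in 21.3% and 45.3% of monocyte-like cells (56.8% and 75.5% unthinned). In collagen-expressing cells, set beside them for comparison, the share was 1.84% and 2.06% after the same thinning. Unthinned it was 8.77% and 10.7% at median depths of 35234 and 40233 UMIs, where the macrophage-like medians were 21800 and 23350 UMIs. Cd274 CPM in collagen-expressing cells was 15.95% and 10.45% of the macrophage-like level, where macrophage markers were at 1.54% and 1.84%. Whether these cells make Cd274 themselves was not tested, so they may not be a true background. The osteoclast-like shares, 2.75% and 3.23%, had intervals that overlapped those of the collagen-expressing cells. In CPM the osteoclast-like level was above the collagen-expressing level in both libraries.

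The ratio of Cd274 between libraries was 2.38 (2.12 to 2.69, anti-VEGF over control) in monocyte-like cells and 1.48 (1.41 to 1.55) in macrophage-like cells, just under the 1.5-fold used here. It was 1.09 (0.919 to 1.29) in osteoclast-like and 0.968 (0.734 to 1.28) in collagen-expressing cells. Over the whole libraries, classes pooled, it was 1.62 (1.57 to 1.68). The difference between classes has no test here. In macrophage-like cells the median ratio of all genes with at least 100 UMIs was 0.927, or -0.11 on the log2 scale. Relative to that median the log2 ratio of Cd274 in these cells was 0.66, against 0.55 on plain CPM, and passed the fold.

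Among genes with at least 30 UMIs, 1 of the 10 members was at or above 1.5-fold in macrophage-like cells (Pdcd1lg2), where 5.1% of 13332 genes were. There were 2 in monocyte-like cells (Cd274 and Pdcd1lg2), where 6.1% of 10266 genes were, and 2 in osteoclast-like cells (Pdcd1lg2 and Havcr2), where 3.39% of 11973 were. Collagen-expressing cells had 1 (Pdcd1lg2), with 5.52% of 12008 genes past the fold. No member was at or below 0.667-fold in any of these 4 classes, where 6.64%, 6.2%, 3.71% and 5.33% of genes were, in the same order of classes. The members' median log2 ratio was 0.07 in macrophage-like, 0.17 in monocyte-like, 0.12 in osteoclast-like and -0.09 in collagen-expressing cells, beside medians over all tested genes of -0.09, -0.04, -0.04 and -0.07. Which members passed varied with the processing. With cells thinned to 5000 UMIs, Cd274 and not Pdcd1lg2 was past it in macrophage-like cells. With a stricter cell filter both were, and in osteoclast-like cells none was, Pdcd1lg2 being then at or below 0.667-fold.

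**Figure D1:**
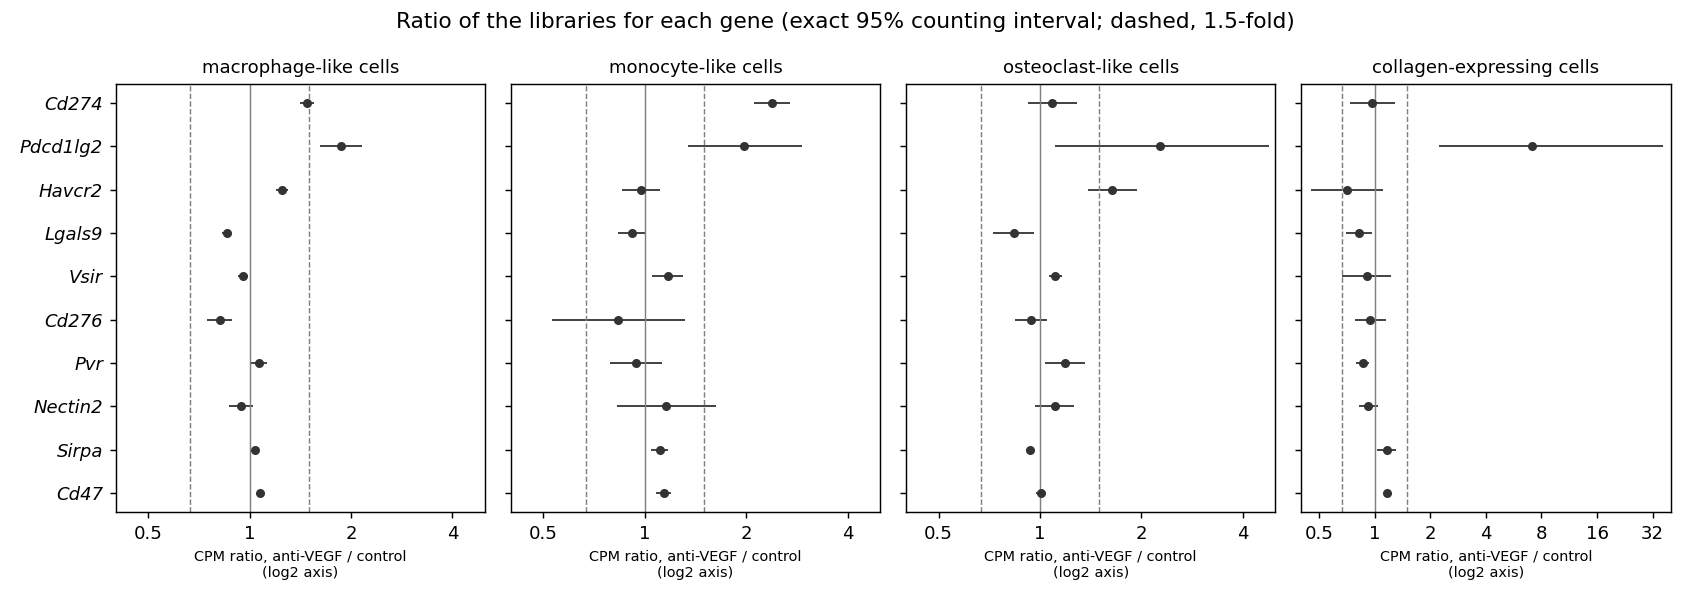
Ratio of CPM in the anti-VEGF library to CPM in the control library (log2 axis) for the 10 genes in the 4 classes with at least 100 cells a library; points are ratios, bars exact 95% counting intervals, dashed lines 1.5-fold up and down. Cd274 stands at 2.38 in monocyte-like and 1.48 in macrophage-like cells, and most other members lie close to 1.

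PD-L2 was scarce in most cells. Pdcd1lg2 stood at 2.88 CPM (2.57 to 3.22) in control and 5.38 CPM (4.92 to 5.88) in anti-VEGF macrophage-like cells, a ratio of 1.87 (1.62 to 2.16). With cells thinned to 5000 UMIs the log2 ratio was 0.35 in place of 0.72. Its levels in monocyte-like cells were 5.51 and 10.8 CPM, from 38 and 101 UMIs, a ratio of 1.96 (1.34 to 2.93). That value depended on the gate: with 1 more marker asked of each cell the log2 ratio was 0.04 in place of 0.86, and with thinned cells it was 0.26. In T cell-like cells Pdcd1lg2 stood at 21.6 CPM (11.8 to 36.3) in 12 of 67 control cells and 64.2 CPM (45.4 to 88.1) in 22 of 53 anti-VEGF cells. The class II genes of antigen-presenting cells stood at 363 and 1252 CPM in those T cell-like cells and mature dendritic markers at 105 and 138.5 CPM, and their part in the difference was not tested. In comparison, mature dendritic cell-like cells held 60.2 and 74.2 CPM. In NK cell-like cells class II genes stood at 285 and 118 CPM and mature dendritic markers at 23.4 and 59.2 CPM. Those 33 control and 8 anti-VEGF cells held 27 and 3 Pdcd1lg2 UMIs, from 469951 and 67597 UMIs in all. Osteoclast-like cells had only 14 and 22 UMIs, with a ratio of 2.27 (1.11 to 4.80) that turned to a log2 ratio of -0.25 under the stricter cell filter. Collagen-expressing cells had 3 and 34 UMIs, a ratio of 7.13 (2.24 to 36.3), and 35.3% of the anti-VEGF UMIs came from 1 cell.

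Within macrophage-like cells, PD-L2 followed the MHC class II genes, which present peptides to helper T cells. Cells of both libraries were ranked by the summed share of 7 class II genes in their UMIs and cut into quartiles. Pdcd1lg2 was at 0.347 CPM in the lowest and 8.53 CPM (7.48 to 9.69) in the highest quartile of the control library. In the anti-VEGF library it had 0 UMIs in 1082 cells of the lowest quartile, which allows up to 0.109 CPM, and 20.5 CPM (18.6 to 22.6) in the highest. A UMI was seen in 132 of 1264 control cells (10.4%) and 154 of 741 anti-VEGF cells (20.8%) of the highest quartile. Markers of mature dendritic cells also stood highest in that quartile, at 25.8 and 18.6 CPM summed over 8 genes, with Ccr7 at 3.89 and 2.42 CPM, and Flt3-positive dendritic markers at 6.96 and 5.73 CPM. Mature dendritic cell-like cells themselves held those 8 markers at 10140 and 8517 CPM. The part of dendritic cells in the Pdcd1lg2 levels of that quartile was not tested. With all cells that had at least 2 markers of neutrophils or of mature dendritic cells left out, the log2 ratio of Pdcd1lg2 in macrophage-like cells was 0.53 in place of 0.72.

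PD-L1 was also higher toward the top of this score and of 3 of the other 4 scores. From the lowest to the highest class II quartile Cd274 went from 18.1 to 44.8 CPM in the control library and from 19.6 to 84.5 CPM in the anti-VEGF library. Along a 10-gene interferon-response score it went from 18.1 to 45.2 CPM and from 25.4 to 73.0 CPM. Along an 8-gene hypoxia score it went from 20.0 to 41.8 CPM and from 29.4 to 53.4 CPM. Along a score of 7 genes of resident-like macrophages (Lyve1, Folr2, Cd163 and others) it went from 22.9 to 29.3 CPM and from 30.4 to 45.3 CPM, with the highest value in the quartile below the top. Along an 8-gene cycling score it was lower toward the top, from 33.2 to 22.1 CPM and from 51.5 to 29.4 CPM. These scores share cells and depth, and a quartile is a range, not a cell type.

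The libraries filled the hypoxia quartiles unequally: 1657 control but 348 anti-VEGF cells were in the lowest, and 496 and 1509 in the highest. Within quartiles of that score the Cd274 ratio between libraries was 1.47, 1.14, 1.03 and 1.28 from lowest to highest, where the whole class gave 1.48. Within class II quartiles it was 1.09, 1.49, 1.501 and 1.89. Within interferon quartiles it was 1.40, 1.15, 1.46 and 1.62. Resident-like quartiles gave 1.33, 1.605, 1.43 and 1.54, and cycling quartiles 1.55, 1.21, 1.49 and 1.33. The class II, resident-like and cycling quartiles were also filled unequally, with 1264 and 741, 1402 and 603, and 1324 and 681 cells in the highest. The part of makeup along any of these scores in the Cd274 difference was not tested. For Pdcd1lg2 the ratio in the highest interferon quartile was 3.97 (3.04 to 5.25), with 2.70 CPM in control and 10.7 CPM in anti-VEGF cells, while the intervals of the middle quartiles held 1.

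**Figure D2:**
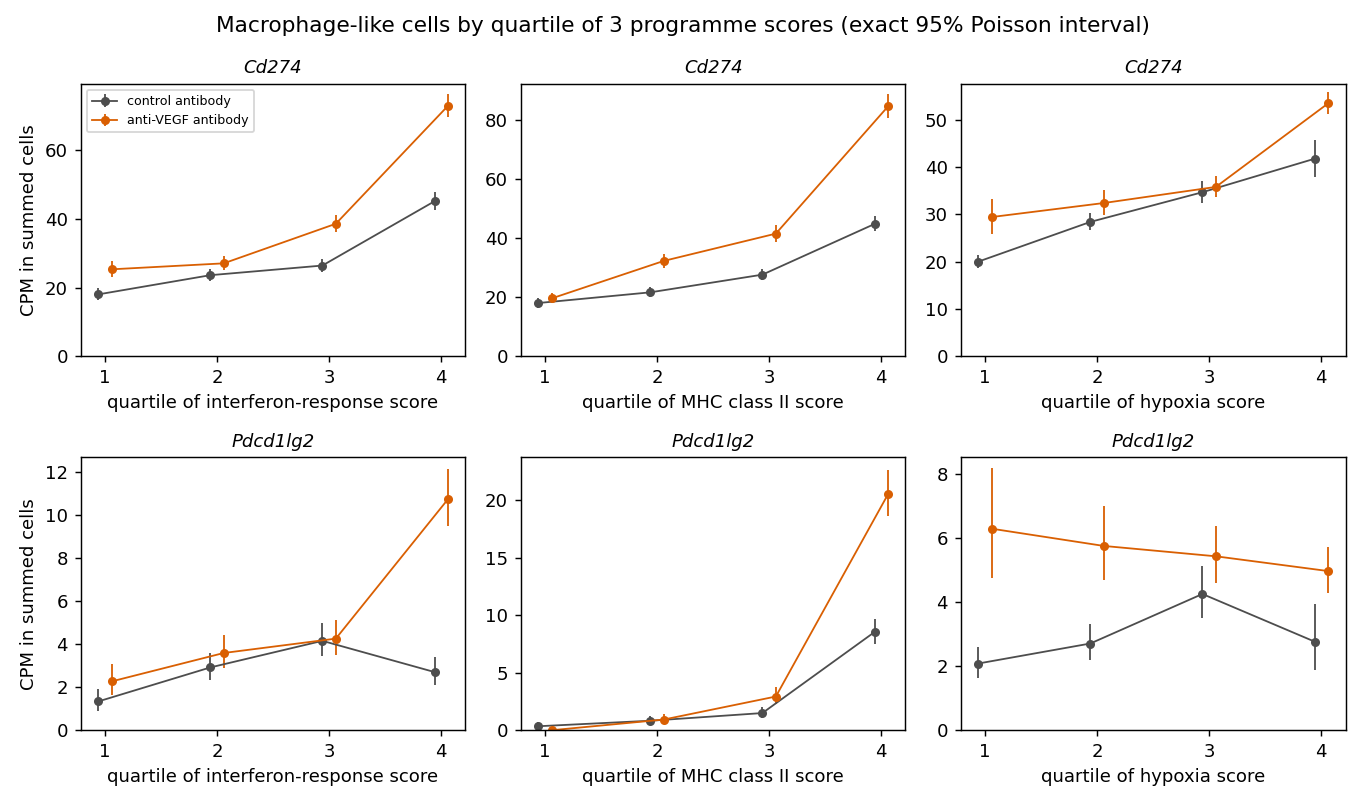
CPM of Cd274 and Pdcd1lg2 in macrophage-like cells, by quartile of 3 programme scores set over both libraries; points are class sums, bars exact 95% Poisson intervals, lines join the quartiles of 1 library. Cd274 goes up along each score in both libraries, and Pdcd1lg2 is concentrated in the highest class II quartile, at 8.53 and 20.5 CPM.

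Other genes around PD-L1 were read from lists, which were chosen with earlier results of these data known. Of 18 hypoxia-response genes, 12 were at or above 1.5-fold in macrophage-like cells and 10 in monocyte-like cells, with median log2 ratios of 0.85 and 0.67. The other large classes shared this: 11 were in osteoclast-like and 15 in collagen-expressing cells, with medians of 0.68 and 1.085. Of all tested genes, 5.1%, 6.1%, 3.39% and 5.52% were at or above 1.5-fold in these classes, in the same order. The genes of the hypoxia score are all in this hypoxia-response list, so the filling of its quartiles and these counts are not separate observations. Among the hypoxia-response genes Slc2a1, the glucose transporter GLUT1, stood at 92.4 and 212 CPM in macrophage-like cells. Ndrg1 stood there at 149 and 435 CPM. Ankrd37 (ratio 2.99), Bnip3 (2.66), Ero1l (2.57), Pgk1 (2.02), Aldoa (1.99), P4ha1 (1.64) and Ldha (1.56) were also past the fold. Of 18 interferon-gamma response genes, members left out, 13 were at or above 1.5-fold in monocyte-like cells (median log2 ratio 0.70) but 1 in macrophage-like cells (median 0.03). Examples in monocyte-like cells, chosen after their values were seen, are Irf1, a transcription factor that activates the PD-L1 gene, at 51.8 and 115 CPM, and the guanylate-binding gene Gbp4 at 22.1 and 92.9 CPM. Neutrophil markers stood at 42.4 and 59.0 CPM in monocyte-like cells, against 72860 CPM in anti-VEGF neutrophil-like cells. Without the cells that held at least 2 markers of neutrophils or mature dendritic cells, the log2 ratio of Cd274 in monocyte-like cells was 1.09, against 1.24 with them.

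Of 22 genes that control PD-L1 and PD-L2, none was past the fold in macrophage-like cells. Cmtm6, which keeps PD-L1 protein at the cell surface, stood at 43.8 and 35.98 CPM in macrophage-like cells and 51.2 and 52.0 CPM in monocyte-like cells. None of 10 phosphatases and adaptors of inhibitory receptors was past the fold in either class. Of all tested genes, 5.1% were at or above 1.5-fold and 6.64% at or below 0.667-fold in macrophage-like cells. In monocyte-like cells these shares were 6.1% and 6.2%, so lists this short could hold few or none. Ptpn6, the phosphatase SHP-1 that several of these receptors recruit, stood at 188 and 165 CPM in macrophage-like cells. Cmtm6 and Ptpn6 were also chosen after their values were seen.

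The receptor of both PD-1 ligands was found in T cell-like cells. Pdcd1 stood at 95.8 CPM (73.5 to 123) in 67 control cells, 21 of them with a UMI, and at 321 CPM (277 to 370) in 53 anti-VEGF cells, 25 with a UMI. The share of cells with a UMI was 31.3% (20.6 to 43.8) and 47.2% (33.3 to 61.4), with overlapping intervals. Macrophage-like cells held 0.468 and 0.281 CPM of Pdcd1, and collagen-expressing cells 0 UMIs. Subtypes of T cells were not separated, so a different makeup and a different level per cell cannot be told apart.

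TIM-3 followed another pattern. Havcr2 was highest in Flt3-positive dendritic cell-like cells, at 160 CPM (130 to 195) in the control and 115 CPM (84.4 to 154) in the anti-VEGF library, while mature dendritic cell-like cells had 0 UMIs in 29 and 14 cells, which allows up to 12.1 and 20.3 CPM. Monocyte-like cells held 58.8 and 57.3 CPM and macrophage-like cells 43.8 CPM (42.5 to 45.0) and 54.5 CPM (53.0 to 56.0). The macrophage-like ratio was 1.245 (1.20 to 1.30), and in monocyte-like cells it was 0.976 (0.856 to 1.11). Osteoclast-like cells were low, at 6.06 and 9.93 CPM, with a ratio of 1.64 (1.39 to 1.94) and a log2 ratio of 0.63 that was 0.32 with the stricter cell filter. The T cell-like cells held 10.8 CPM (7 UMIs in 5 cells) and 52.4 CPM (31 UMIs in 10 cells), and 42.9% and 29.0% of those UMIs came from 1 cell.

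Havcr2 varied little along the interferon score. In control macrophage-like cells it was 39.6, 43.7, 45.1 and 45.9 CPM from the lowest to the highest interferon quartile, with the lowest and highest intervals apart, and in anti-VEGF cells 55.6, 53.5, 55.8 and 53.3 CPM, with overlapping intervals. Along the hypoxia score it went from 36.1 to 58.3 CPM in the control and from 47.8 to 57.0 CPM in the anti-VEGF library. In the highest hypoxia quartile the libraries overlapped, at 58.3 CPM (53.8 to 63.0) and 57.0 CPM (54.7 to 59.4).

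Galectin-9, the ligand of TIM-3, was highest among the large classes in monocyte-like and macrophage-like cells. Lgals9 stood at 91.0 CPM (89.2 to 92.8) and 77.7 CPM (75.9 to 79.5) in macrophage-like cells, a ratio of 0.854 (0.828 to 0.880), and at 110 and 101 CPM in monocyte-like cells. Osteoclast-like cells held 12.5 and 10.45 CPM and mature dendritic cell-like cells 2 UMIs in each library. Flt3-positive dendritic cell-like cells, where Havcr2 was highest, held 38.3 and 25.1 CPM. Along the interferon score it went from 65.7 to 119 CPM in the control and from 48.1 to 106 CPM in the anti-VEGF library. Along the resident-like score it went from 47.8 to 125 CPM and from 51.7 to 112 CPM. It was lower in the anti-VEGF library in 3 of the 4 quartiles of the latter score.

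Thinned to 5000 UMIs, 7.22% of control and 7.01% of anti-VEGF macrophage-like cells held a UMI of both Havcr2 and Lgals9. The product of the single shares was 6.34% and 6.55%. A pair of Sirpa and Cd47 was seen in 53.2% and 57.3% of these cells, where the product was 53.6% and 56.9%.

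VISTA, an inhibitory ligand and receptor of myeloid cells, was as abundant in osteoclast-like cells as in any large class. Vsir stood there at 99.1 CPM (96.2 to 102) and 110 CPM (106 to 114), in monocyte-like cells at 82.0 and 95.8 CPM, and in macrophage-like cells at 75.5 and 72.1 CPM. Neutrophil-like cells held 100.5 CPM (57.5 to 163) and 92.3 CPM (71.7 to 117), and collagen-expressing cells 3.91 and 3.54 CPM. The osteoclast-like class thus had low Cd274, Havcr2 and Lgals9 but high Vsir. Macrophage markers stood at 20.5% of their macrophage-like level in control osteoclast-like cells, where Cd274 was at 26.4%, Havcr2 at 13.9%, Lgals9 at 13.7% and Vsir at 131%. In macrophage-like cells the Vsir ratio was 0.956 (0.925 to 0.987) and turned above 1 relative to the median of all genes, with a log2 ratio of 0.04.

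B7-H3, a B7-family protein of mesenchymal and tumour cells, stood, like Vsir, above the other 3 large classes in osteoclast-like cells of both libraries, with intervals apart. Cd276 stood at 18.6 CPM (17.3 to 19.9) and 17.5 CPM (16.03 to 19.0) in osteoclast-like, 12.2 and 9.95 CPM in macrophage-like, 9.54 and 9.05 CPM in collagen-expressing and 5.66 and 4.72 CPM in monocyte-like cells. Flt3-positive and mature dendritic cell-like cells had 0 UMIs in both libraries. The macrophage-like ratio was 0.814 (0.748 to 0.886).

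The TIGIT ligands were led by the collagen-expressing cells among the 4 large classes. Pvr stood there at 60.9 CPM (57.4 to 64.5) and 52.3 CPM (49.8 to 55.0), against 21.2 and 22.5 CPM in macrophage-like cells, 33.5 and 31.5 CPM in monocyte-like cells and 10.9 and 12.9 CPM in osteoclast-like cells. Nectin2 stood at 26.1 and 24.1 CPM in collagen-expressing cells, 11.7 and 11.1 CPM in macrophage-like cells and 11.76 CPM (10.8 to 12.8) in control osteoclast-like cells. Flt3-positive dendritic cell-like cells held Pvr at 31.6 CPM (19.0 to 49.4) and 55.1 CPM (34.6 to 83.5) but 0 Nectin2 UMIs, which allows up to 4.995 and 7.52 CPM. Collagen-expressing cells made up 4.65% of control and 8.81% of anti-VEGF cells kept, and held 23.2% and 29.7% of all Pvr UMIs. Over the whole libraries Pvr had a ratio of 1.16 (1.11 to 1.20), and within collagen-expressing cells it was 0.860 (0.797 to 0.928). The latter direction did not hold under all processing: the log2 ratio of Pvr there was -0.21, but 0.01 with the mean of single-cell CPM and 0.21 with thinned cells.

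Of the receptors of these ligands, Tigit was sparse in T cell-like cells. A UMI of Cd226 was in 38.8% and 34.0% of these cells and a UMI of Cd96 in 32.8% and 41.5%. In T cell-like cells Tigit had 7 and 4 UMIs, Cd226 stood at 61.8 CPM (44.2 to 84.2) and 54.1 CPM (37.0 to 76.3), and Cd96, another receptor of CD155, at 55.7 CPM (39.0 to 77.0) and 65.9 CPM (46.9 to 90.1). The intervals of the libraries overlapped for each of these receptors. NK cell-like cells, 33 and 8 in number, held 18 and 3 UMIs of Cd226 and 20 and 5 of Cd96.

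SIRP-alpha was high in the phagocyte classes but not confined to them. Sirpa stood at 315 CPM (312 to 319) and 327 CPM (323 to 331) in macrophage-like, 298 and 279 CPM in osteoclast-like, 294 and 325 CPM in monocyte-like and 239 and 189 CPM in neutrophil-like cells. In collagen-expressing cells it was 23.5 and 27.2 CPM and in T cell-like cells 23.2 and 15.2 CPM. The 10 control and 3 anti-VEGF plasmacytoid dendritic cell-like cells held 16 and 10 Sirpa UMIs, from 92482 and 46104 UMIs in all. In the T cell-like cells macrophage markers stood at 4.75% and 2.93% of their macrophage-like level and Sirpa at 7.35% and 4.65% of its own. Along the resident-like score Sirpa went from 214 to 394 CPM in the control and from 250 to 411 CPM in the anti-VEGF library, with each quartile above the one before.

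CD47 was present in every class. Cd47 stood at 281 and 302 CPM in macrophage-like, 331 and 377 CPM in monocyte-like, 220 and 256 CPM in collagen-expressing and 178 and 180 CPM in osteoclast-like cells, the lowest of the large classes. T cell-like cells held 369 CPM (324 to 419) and 512 CPM (456 to 573), control NK cell-like cells 772 CPM (695 to 856), mature dendritic cell-like cells 646 and 796 CPM, and the 10 control plasmacytoid dendritic cell-like cells 1546 CPM (1303 to 1821). Its ratio in the 4 large classes ran from 1.008 in osteoclast-like to 1.17 in collagen-expressing cells, all under the fold.

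**Figure D3:**
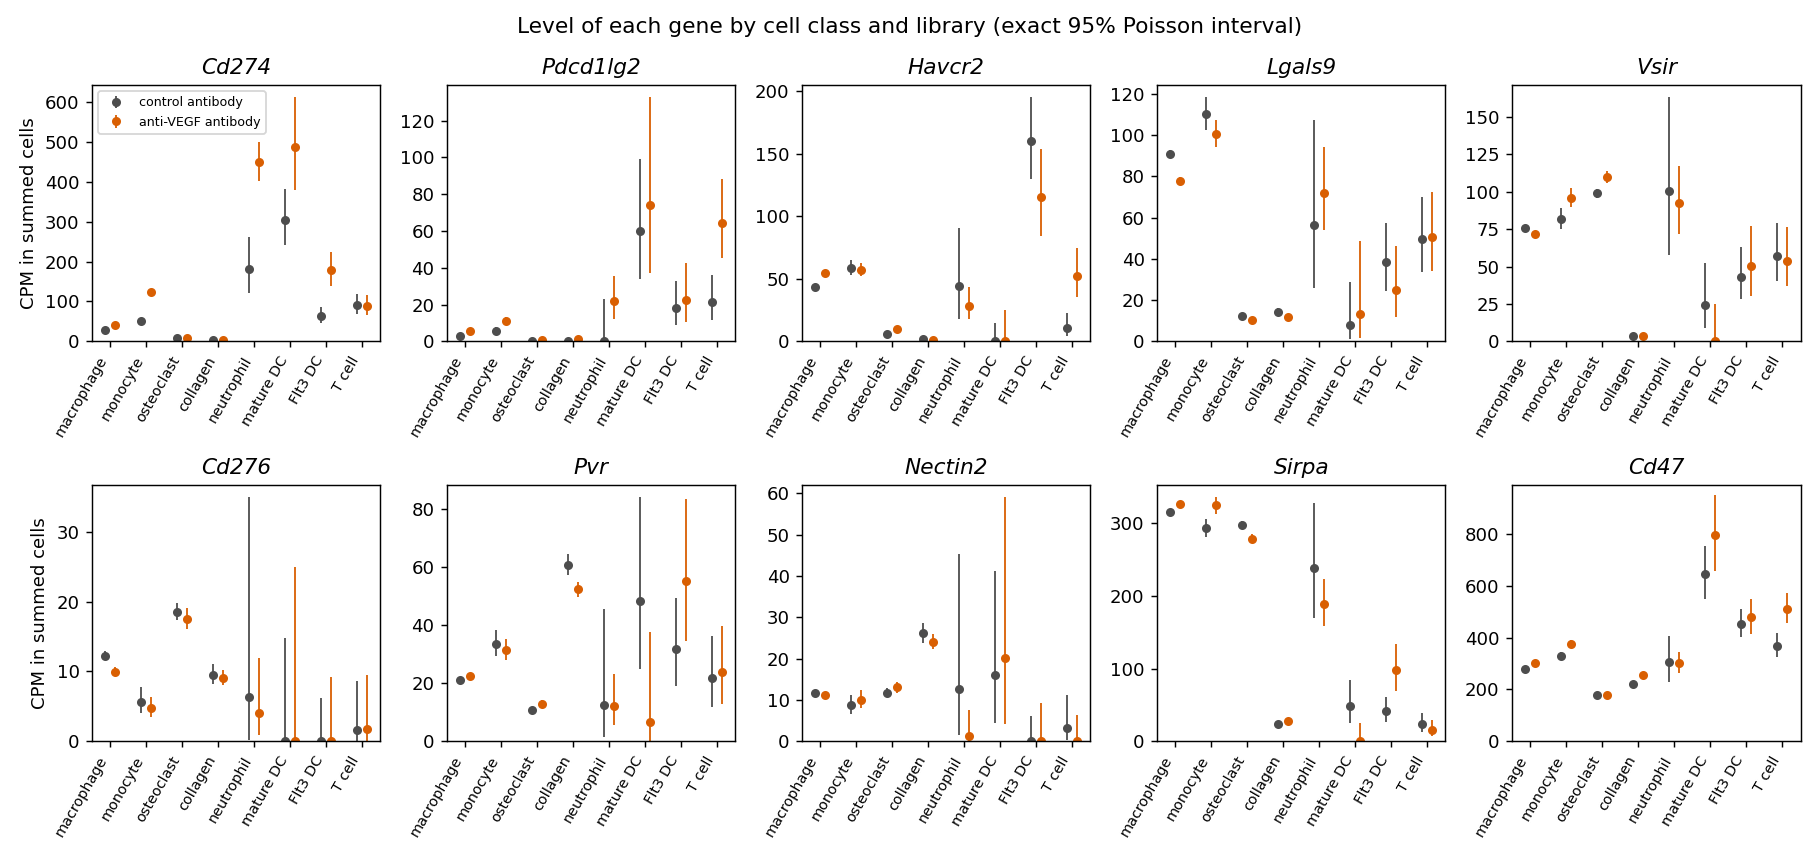
CPM of each gene (linear axis, own scale per gene) in 8 cell classes of the control-antibody and anti-VEGF-antibody libraries; points are sums over the cells of a class, bars exact 95% Poisson intervals, DC stands for dendritic cell-like. Cd274 is highest in neutrophil-like and mature dendritic cell-like cells, Havcr2 in Flt3-positive dendritic cell-like cells, and Cd276 in osteoclast-like cells among the large classes.

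Macrophage-like cells supplied the largest share of UMIs for all 10 genes in both libraries. Their share was 72.4% and 70.02% for Havcr2, 73.8% and 67.8% for Lgals9 and 60.7% and 51.0% for Cd274, while they held 48.7% and 44.9% of all UMIs. It was below that share of all UMIs in both libraries for Pvr (45.8% and 38.9%), Nectin2 (44.8% and 37.75%) and Cd276 (44.3% and 40.9%). For the other members it was above. Monocyte-like cells gave 6.99% of control and 15.1% of anti-VEGF Cd274 UMIs from 3.08% and 4.52% of all UMIs. Neutrophil-like cells gave 4.32% of the anti-VEGF Cd274 UMIs from 0.357% of all UMIs. Mixed cells held 26.4% and 20.9% of Pdcd1lg2 UMIs from 7.45% and 8.09% of all UMIs, so those transcripts have no single class.

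**Figure D4:**
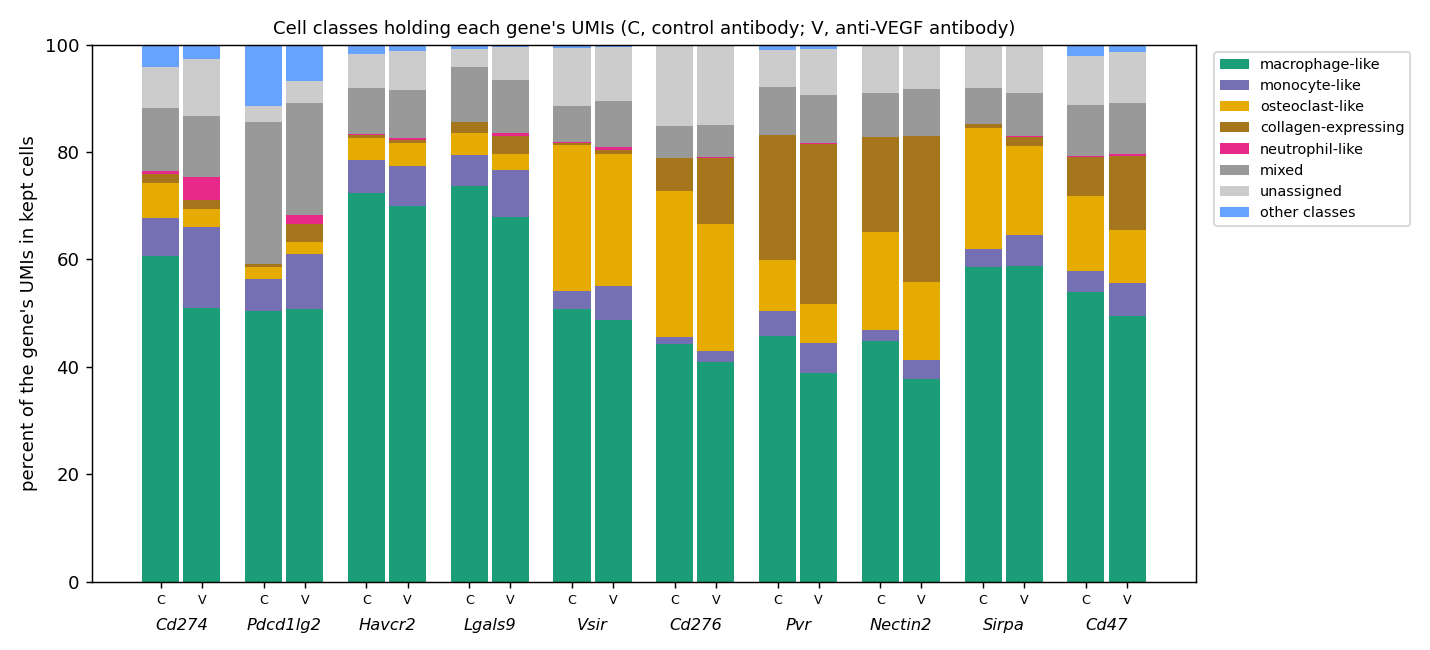
Percent of each gene's UMIs in kept cells that came from each cell class, stacked to 100, in the control (C) and anti-VEGF (V) libraries. Macrophage-like cells form the largest part for all 10 genes, osteoclast-like cells are prominent for Vsir and Cd276, and collagen-expressing cells for Pvr, at 23.2% and 29.7%.

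The genes most like the members were sought over 12 class-by-library sums with at least 50 cells, among 4980 genes, by Pearson's r of log2(CPM + 1). These sums share libraries and cells, and the correlations are a description. Cd274 was most like Diaph1 (r = 0.99), Ppp1r3b and Slfn1 (both 0.98). For Vsir these were Trpv2, Itgb2 and Lcp2 (0.99 each), for Sirpa Arl11, Sgpl1 and Rbm47 (0.98 to 0.99), for Lgals9 Il4ra, Etv3 and Dck (0.93 to 0.97), and for Cd47 Mbd2, Clint1 and Hif1a (0.92 to 0.97). Between members, r was 0.89 for Havcr2 and Lgals9, 0.64 for Cd274 and Pdcd1lg2, and -0.31 for Sirpa and Cd47.

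Of the wider set of checkpoint ligands and enzymes, 13 of 18 had at least 30 UMIs in macrophage-like cells, 3 at or above 1.5-fold and 1 at or below 0.667-fold. Lgals3, the gene of galectin-3, stood at 1456 and 3118 CPM, a ratio of 2.14 (2.13 to 2.16), and Nt5e, the adenosine-forming enzyme CD73, at 28.4 and 53.0 CPM, a ratio of 1.87 (1.79 to 1.95). Of 17 other inhibitory receptors of myeloid cells, 1 was at or below 0.667-fold there and none at or above 1.5-fold. Among 15 receptors and binding partners of the members, 1 was above the fold and 2 below in these cells, all of them at low levels. Of all tested genes in macrophage-like cells, 5.1% were at or above 1.5-fold and 6.64% at or below 0.667-fold. Counts this small do not set the receptor and partner lists apart from all genes.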

How the data were processed

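Single-cell 3-prime libraries (chemistry v3.1) of CD45-sorted tumour cells were analysed, 1 per group. The authors deposited whole-number UMI counts for every gene and cell barcode. The submitters' processing notes name Cell Ranger 3.0.2 and mm10, whereas software version 3.1.0 stands in the matrix, per the file headers. From these counts, cells with at least 300 genes, 500 UMIs and at most 10% mitochondrial UMIs were kept. The members, gene lists and markers were chosen with earlier results of these data known, and gate thresholds were set once, after marker values but before member levels were seen. Gates asked for 3 or 4 markers of a lineage, 5 and 50 per 10000 UMIs for osteoclast-like, 4 and 5 per 10000 for monocyte-like (with 5 macrophage markers), and 7 of 9 and 10 per 10000 for macrophage-like cells. Scrublet (scanpy 1.11.5) called 1 and 0 doublets and so did not work here: mixed cells were kept apart instead. There were 35 barcodes present in both libraries.

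For each class, its UMIs in a library were added up and scaled to CPM. Intervals are exact at 95% (Poisson for levels, Clopper-Pearson for shares, conditional binomial for ratios), and log2 ratios used a pseudocount of 1 CPM. Where 0 UMIs were found, the limit is 3 counts of the total. Ratios needed 100 cells in each library, and called means 1.5-fold. The ratio step was tested on simulated counts. Named genes are all members, list genes past the fold in macrophage-like cells with at least 50 CPM, and lymphocyte receptors, with exceptions said in place.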

Additional observations from a re-analysis of the deposited data

Results flagged for a closer look

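For 3 members the ratio between libraries had an interval above 1 in one class and below 1 in another, which drew attention because the classes moved opposite ways. The difference was not tested, since each group is 1 library, and all these values are within 1.5-fold. Vsir had a ratio of 1.17 in monocyte-like and 0.956 in macrophage-like cells, and the latter turned to a log2 ratio of 0.04 with scaling by the median ratio. Pvr had 1.19 in osteoclast-like and 0.860 in collagen-expressing cells, and the latter turned to log2 ratios of 0.01 with the mean of single-cell CPM and 0.21 with thinned cells. Sirpa had 1.16 in collagen-expressing and 0.937 in osteoclast-like cells, and the former turned to a log2 ratio of -0.05 with mixed cells put back. The opposite directions therefore did not hold under all alternatives.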

How the results depend on the processing

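No paired analysis was possible because each group holds 1 library, and for the same reason no library could be left out. The count of members at or above 1.5-fold in macrophage-like cells, 1 as reported, was 2 with a stricter cell filter, with 1 more marker in each gate, with the mean of single-cell CPM and with scaling by the median ratio, and 0 with a pseudocount of 5 CPM. With cells thinned to 5000 UMIs it stayed at 1, but the member was Cd274 and Pdcd1lg2 had a log2 ratio of 0.35. In monocyte-like cells, 2 as reported, it was 1 with the mean of single-cell CPM and with cells thinned to 5000 UMIs. With 1 more marker it stayed at 2, but Nectin2 (log2 ratio 0.80) took the place of Pdcd1lg2 (0.04). In osteoclast-like cells, 2 as reported, it was 0 with the stricter filter, the mean of single-cell CPM and the pseudocount of 5 CPM, and 3 with thinned cells, Pvr being added. In collagen-expressing cells, 1 as reported, it was 0 with the mean of single-cell CPM and the pseudocount of 5 CPM and 2 with thinned cells (Pdcd1lg2 and Havcr2). The count at or below 0.667-fold, 0 as reported, was 1 in osteoclast-like cells with the stricter filter (Pdcd1lg2). In collagen-expressing cells it was 1 (Havcr2) without the top Scrublet scores, without barcodes found in both libraries and with the mean of single-cell CPM, and 2 without cells with 2 or more neutrophil or mature dendritic markers (Cd274 and Havcr2). Leaving out barcodes found in both libraries and leaving out cells by those markers were alternatives chosen after seeing the data. The log2 ratio of Pdcd1lg2 in osteoclast-like cells turned to -0.25 with the stricter filter. The cause was not tested. The log2 ratio of Cd274 kept its sign under all 12 alternatives in monocyte-like (1.09 to 1.28) and macrophage-like cells (0.49 to 0.66). Of 480 member ratios under alternatives, 429 stayed within the counting interval of the reported value. Depth limits the values of classes under 100 cells, for which no ratio was formed.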
